A study of Mus musculus with 5 samples.

Results

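Erythroid regulators and genes of late red cell maturation were followed in whole blood of F1 mice, in a list of 9 named genes: Gata1, Klf1, Tal1, Nfe2, Bpgm, Bnip3l, Trim10, Car2 and Car1. The members were all probe sets of the array whose platform annotation gives exactly 1 gene symbol, that symbol being on the list. This gave 10 of 45101 probe sets, which stand for 8 of the 9 genes, and of 18194 genes named on the array. Bpgm has 3 of them and the other genes with a probe set have 1 each. Bnip3l has 0 such probe sets, because its 3 probe sets also carry the name of the pseudogene Bnip3l-ps, and no value is given for it. The blood came from adult females that shared the FVB/NJ parent strain. The other parent was AKR/J on 2 arrays (AKRxFVB F1) and DBA/2J on 3 arrays (DBAxFVB F1), and the question was which genes differ in basal expression between these genotypes. No treatment or engineered allele is named for either group. All mice were killed under Avertin anaesthesia and bled by cardiac puncture, so both groups share these steps. Whether each array is a separate mouse or a pool is not stated, so the p-values reflect only the scatter of these arrays, part of which may come from handling rather than from mice.

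Red cells are made in the marrow and spleen from precursors under the control of a few transcription factors, which include GATA1, KLF1, TAL1 and NF-E2. The precursor then expels its nucleus, and the resulting reticulocyte keeps residual messenger RNA while it clears mitochondria and ribosomes in the circulation. Red cell RNA in blood therefore comes largely from reticulocytes. GATA1, TAL1 and NF-E2 also act in megakaryocytes, whose fragments are the platelets.

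Promoter sequences of the members were read from RefSeq (build GRCm38.p6), in windows of 250 bases before to 50 bases after a gene's start. Windows of 5 of the 9 genes matched, 6 windows in all, as Tal1 has 2. They are shown because several of the listed genes encode factors that bind short motifs in the promoters of the others, and the match to those motifs can be read directly. The 250 bases before the start are printed 5′ to 3′ on the gene's strand, for Gata1 (chrX:7967911-7968160, minus strand), Klf1 (chr8:84901732-84901981, plus strand), Tal1 (chr4:115056176-115056425, plus strand), Bpgm (chr6:34476106-34476355, plus strand) and Trim10 (chr17:36869324-36869573, plus strand). Capitals mark the GATA motif (AGATAA as well as AGATAG, and TGATAA as well as TGATAG, on either strand) and the CACCC motif, bound by KLF1 among other factors (CACCC, either strand).
Gata1: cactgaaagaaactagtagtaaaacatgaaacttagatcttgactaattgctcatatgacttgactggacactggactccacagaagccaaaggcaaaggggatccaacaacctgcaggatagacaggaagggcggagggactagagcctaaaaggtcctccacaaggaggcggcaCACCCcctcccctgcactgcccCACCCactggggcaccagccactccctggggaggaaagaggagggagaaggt
Klf1: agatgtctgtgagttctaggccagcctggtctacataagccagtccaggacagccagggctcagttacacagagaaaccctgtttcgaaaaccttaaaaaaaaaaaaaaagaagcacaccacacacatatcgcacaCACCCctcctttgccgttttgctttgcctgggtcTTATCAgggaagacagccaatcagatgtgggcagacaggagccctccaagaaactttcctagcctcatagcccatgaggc
Tal1: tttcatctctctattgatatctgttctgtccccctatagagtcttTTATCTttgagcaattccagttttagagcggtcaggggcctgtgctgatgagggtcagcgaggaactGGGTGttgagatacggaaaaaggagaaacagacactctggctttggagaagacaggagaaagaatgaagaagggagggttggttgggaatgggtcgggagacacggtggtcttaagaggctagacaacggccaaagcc
Bpgm: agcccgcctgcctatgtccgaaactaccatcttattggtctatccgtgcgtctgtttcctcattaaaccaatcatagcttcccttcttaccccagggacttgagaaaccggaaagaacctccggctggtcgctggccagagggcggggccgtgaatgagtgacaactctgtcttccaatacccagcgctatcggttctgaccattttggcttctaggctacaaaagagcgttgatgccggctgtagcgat
Trim10: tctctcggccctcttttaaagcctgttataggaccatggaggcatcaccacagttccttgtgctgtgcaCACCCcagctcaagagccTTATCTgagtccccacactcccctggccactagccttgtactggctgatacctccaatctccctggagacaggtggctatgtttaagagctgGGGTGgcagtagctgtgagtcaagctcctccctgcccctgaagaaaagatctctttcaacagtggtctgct

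The GATA motif was found in 3 of the 6 windows, against 29.8% of all 32851 windows in the table. In Klf1 it began 80 bases before the start, in Trim10 163 and in the printed Tal1 window 205, each time on the opposite strand. CACCC was found in 4 of the 6 windows, against 57.5% of all windows. Gata1 has CACCC 74 and 52 bases before its start, and Klf1 has it 114 bases before. Trim10 has it 181 bases before its start and, on the opposite strand, 71 bases before. The Bpgm window and the second Tal1 window held neither motif. The E box CANNTG, which TAL1 binds with its partners, was in 4 of the 6 windows and in 72.3% of all, and is not capitalised. No printed GATA and CACCC matches overlap. A match of this kind is a description of the letters in the window.

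The red cell genes Alas2, Slc4a1 and Hba-a2 read above the array medians on every array, and Hba-a1 lay close to them. Alas2, the first enzyme of heme synthesis in erythroid cells, read between 13.45 and 13.59 on the log2 scale on all 5 arrays, whose medians over all non-control probe sets lay between 2.49 and 2.54. Slc4a1, the anion exchanger of the red cell membrane, read between 9.13 and 10.71. The alpha globin gene Hba-a2 read between 3.39 and 5.87, and Hba-a1 between 2.34 and 2.68, close to the array medians. Probe sets with several symbols, 932 on the array, were not read, and no beta globin value is given. These values therefore do not give the level of globin RNA in this blood. DBAxFVB F1 array 3 stood apart from the others. Its 18 hybridisation control probe sets had a median of 7.99, against 10.01 to 10.12 on the other arrays, and probe sets whose log2 values averaged 8 to 10 lay -0.91 from their own 5-array mean there. The gap between 3-prime and 5-prime Actb probe sets, a sign of RNA quality, was 1.32 on that array and 1.22 on AKRxFVB F1 array 1, against 0.68 to 1.03 on the others. The same gap for Gapdh was 1.33 and 1.04, against 0.58 to 0.73, and the part of RNA quality in the member values was not tested. The platelet list had a log2 summed level of 12.435 and 13.58 on the AKRxFVB F1 arrays and of 13.10, 13.10 and 11.16 on the DBAxFVB F1 arrays. In bulk blood, fewer cells of a type and less RNA per cell cannot be told apart. Levels of different probe sets are not ranked against each other, because each probe set has its own binding strength. Summed levels of a list are compared between arrays only.

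No member differed between the crosses beyond the spread between arrays. In a limma fit over the 22519 probe sets with a mean at or above the median of all, 0 of the 10 members passed a Benjamini-Hochberg adjusted p below 0.05, and the share called among all tested was 0%. At an unadjusted p below 0.05 the count was 0 of 10, against 10.4% of all tested, of which 3.59% were higher and 6.79% lower in DBAxFVB F1. The estimate was below 0 for 8 of 10 members, 3 of them Bpgm, against 43.2% of all tested. DBAxFVB F1 array 3 gave the lowest value for 6 of 10, against 24.4% of all tested. Much of this background is dim: the 9554 probe sets with a mean of 2.5 to 3 had a median difference of 0.068. Probe sets with a mean of 10 to 15, as Bpgm has, had a median difference of -0.30 and lay -0.61 from their mean on DBAxFVB F1 array 3. Those with a mean of 8 to 10, as Trim10 and Car2 have, had -0.56 and -0.91. Probe sets with a mean of 4 to 6, as Gata1, Klf1, Tal1 and Nfe2 have, had smaller shifts, of -0.0086 and -0.057. The counts of 8 and 6 mix these classes and are not read as a trait of the members. The groups overlapped in 10 of 10 members, whereas they did not overlap for 28.9% of all tested probe sets. Differences, given as DBAxFVB F1 minus AKRxFVB F1 in log2 units, ran from -0.24 to 0.33, and limma adjusted p ran from 0.65 to 0.995. In every member the wider of the within-cross ranges exceeded the difference between the crosses. All 10 members were above the filter, so none is missing from these counts.

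**Figure D1:**
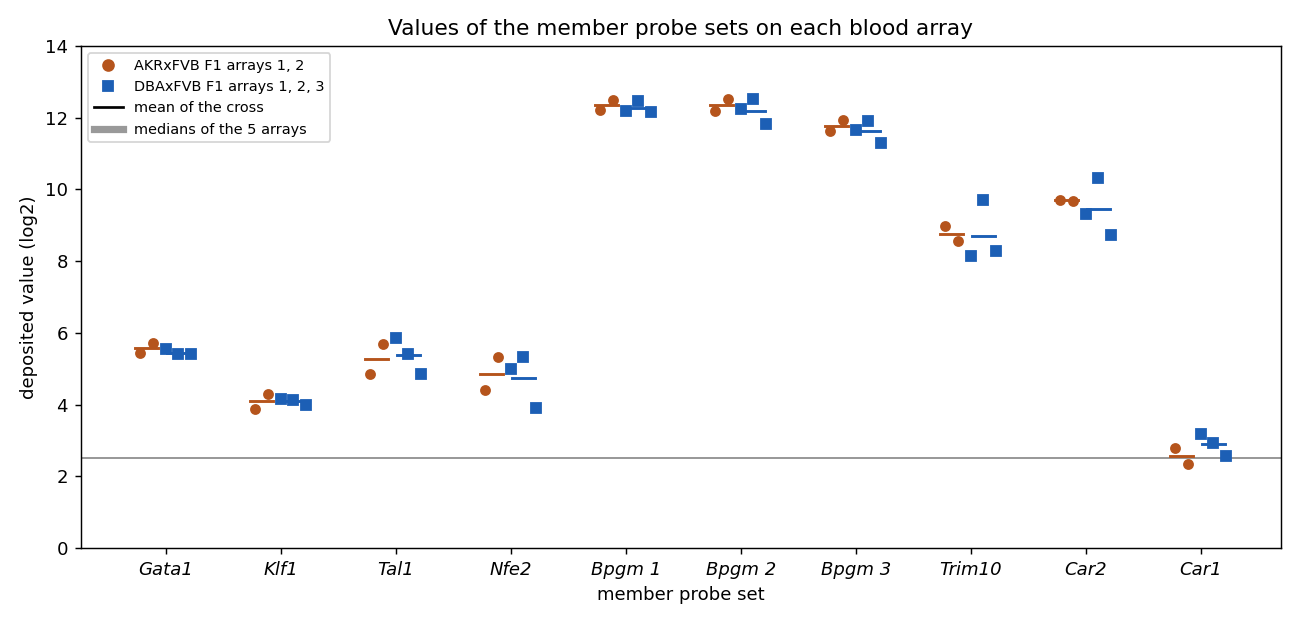
Deposited log2 values (vertical axis) of the 10 member probe sets (horizontal axis) on each array, with circles for the 2 AKRxFVB F1 arrays, squares for the 3 DBAxFVB F1 arrays, coloured bars for the mean of each cross and a grey band for the medians of the 5 arrays. Bpgm 1, 2 and 3 are probe sets 1415865_s_at, 1448119_at and 1415864_at. Circles and squares overlap in all 10 members, and Car1 lies close to the grey band.

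**Figure D2:**
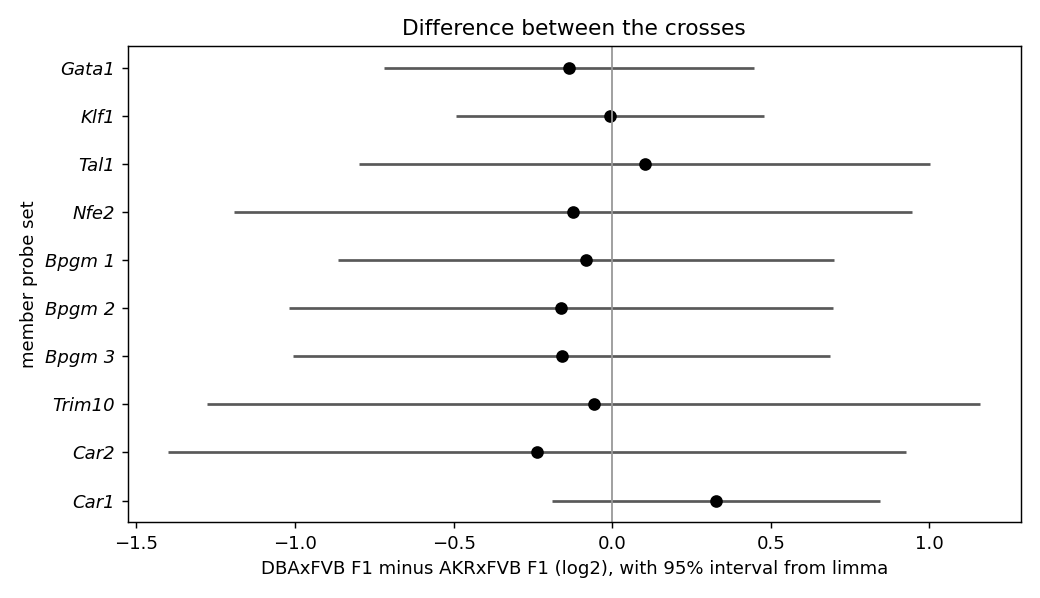
Difference between the crosses in log2 units (horizontal axis) for each member probe set (vertical axis), with points for limma's estimate and lines for its 95% interval. All 10 intervals include 0, the widest being that of Trim10, from -1.28 to 1.16.

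Gata1, the zinc finger factor that drives erythroid and megakaryocyte differentiation, was nearly level over the arrays. Its probe set 1449232_at read 5.45 and 5.73 in AKRxFVB F1 and 5.55, 5.40 and 5.415 in DBAxFVB F1. The highest value came from AKRxFVB F1 array 2, and the other AKRxFVB F1 array lay inside the range of the DBAxFVB F1 arrays. The means were 5.59 ± 0.20 (SD, n = 2) and 5.46 ± 0.08 (SD, n = 3), a difference of -0.14 ± 0.25 (SE; limma adjusted p = 0.87) with a 95% interval from -0.72 to 0.45. Without AKRxFVB F1 array 2 the difference was 0.0052, and after quantile normalization 0.11.

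Klf1, the CACCC-binding factor that activates adult beta globin and many other red cell genes, showed the smallest difference of the 10 members. Its probe set 1418600_at read 3.89 and 4.31 in AKRxFVB F1 and 4.16, 4.12 and 3.999 in DBAxFVB F1. The 3 DBAxFVB F1 values all lay between the AKRxFVB F1 values. The means were 4.10 ± 0.29 (SD, n = 2) and 4.09 ± 0.09 (SD, n = 3), a difference of -0.0055 ± 0.21 (SE; limma adjusted p = 0.995), and the 95% interval of -0.49 to 0.48 spans folds from 0.711 to 1.39. The difference was 0.20 without AKRxFVB F1 array 2, 0.042 without DBAxFVB F1 array 3 and 0.018 after quantile normalization.

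Tal1, the helix-loop-helix factor that joins GATA1 in a complex with LMO2 and LDB1, varied more between arrays of a cross. Its probe set 1449389_at read 4.85 and 5.70 in AKRxFVB F1 and 5.87, 5.40 and 4.85 in DBAxFVB F1. Each cross thus held 1 array at 4.85, and the highest value came from DBAxFVB F1 array 1. The means were 5.27 ± 0.60 (SD, n = 2) and 5.37 ± 0.51 (SD, n = 3), a difference of 0.10 ± 0.39 (SE; limma adjusted p = 0.94). The residual SD of 0.54 was above that of 93.7% of all tested probe sets, most of which are dimmer. Leaving out AKRxFVB F1 array 1 gave -0.32, and leaving out DBAxFVB F1 array 1 gave -0.15.

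Nfe2, which encodes the p45 subunit of NF-E2, a factor of globin expression and of platelet formation, had the widest range of the 4 factors. Its probe set 1452001_at read 4.40 and 5.33 in AKRxFVB F1 and 4.98, 5.34 and 3.91 in DBAxFVB F1. AKRxFVB F1 array 2 and DBAxFVB F1 array 2 were high and nearly equal, and DBAxFVB F1 array 3 was lowest. The means were 4.87 ± 0.66 (SD, n = 2) and 4.74 ± 0.74 (SD, n = 3), a difference of -0.12 ± 0.46 (SE; limma adjusted p = 0.94) with a 95% interval from -1.19 to 0.94. Leaving out AKRxFVB F1 array 2 gave 0.34, and leaving out DBAxFVB F1 array 3 gave 0.29.

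The platelet and megakaryocyte list moved over the arrays beside Nfe2. Relative to its own 5-array mean, Nfe2 lay at -0.39 and 0.54 on the AKRxFVB F1 arrays and at 0.19, 0.55 and -0.88 on the DBAxFVB F1 arrays. The median of the 18 tested platelet genes lay at -0.39 and 0.86, and at 0.46, 0.42 and -1.30. The mean absolute difference between these profiles was 0.23 over the 5 arrays, the lowest among the 12 gene lists and 3 classes of bright probe sets set beside Nfe2. Probe sets with a mean of 8 to 10 were nearly as close, at 0.25, and so was the reticulocyte maturation list, at 0.26. For Gata1 and Klf1 the platelet profile was the farthest of the 15, at 0.62 and 0.57, and for Tal1 it was at 0.37. This distance grows with the size of the swings, which were largest in the platelet list, so a nearly level probe set lies far from it. The platelet profile was also the farthest for Trim10, at 0.83, and for Bpgm probe set 1415865_s_at, at 0.59. This description was chosen after the values were seen, and the part of platelets in the Nfe2 values was not tested. Pf4, a platelet chemokine, read 9.58 and 11.30 in AKRxFVB F1 and 10.72, 10.29 and 8.53 in DBAxFVB F1. Itga2b, the platelet integrin alpha chain, read 6.89 and 8.22, and 7.76, 7.62 and 5.99. Both were highest on AKRxFVB F1 array 2 and lowest on DBAxFVB F1 array 3.

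**Figure D3:**
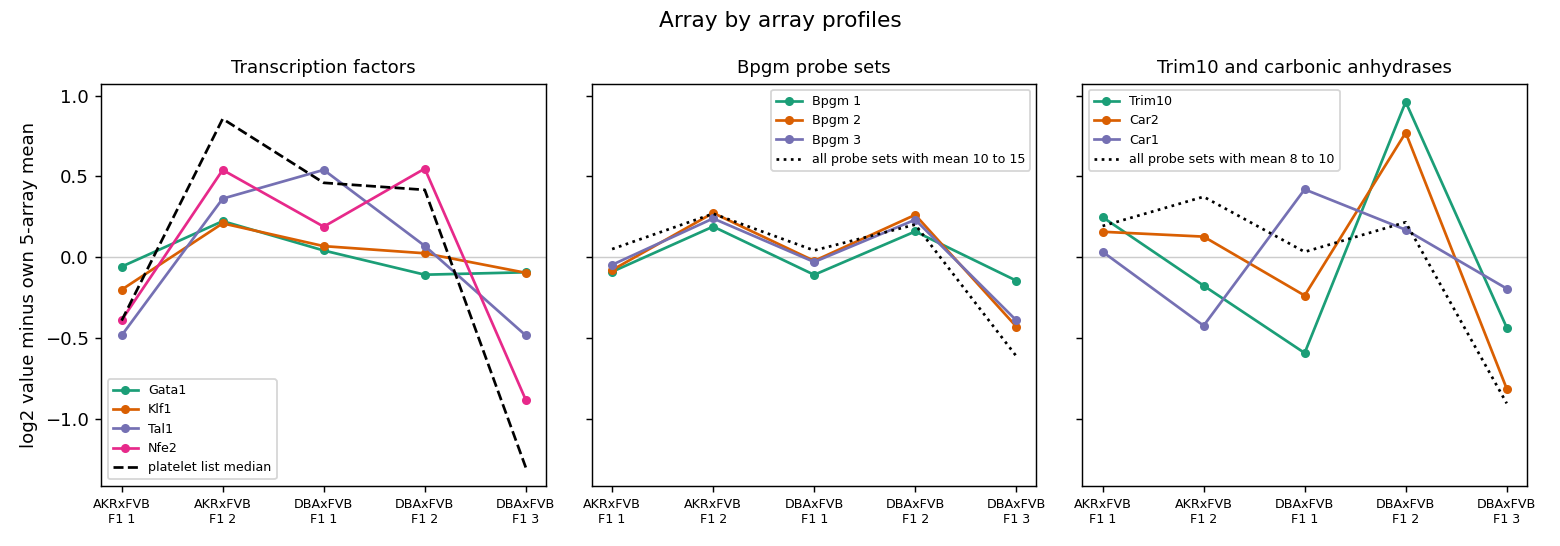
Log2 value minus each probe set's own 5-array mean (vertical axis) on the 5 arrays (horizontal axis), for the transcription factors, the Bpgm probe sets, and Trim10 with the carbonic anhydrases. Lines join arrays only to guide the eye; the dashed line is the platelet list median and the dotted lines are medians of all tested probe sets with means of 10 to 15 or of 8 to 10, a class that holds Trim10 and Car2 but not Car1. Nfe2 and the platelet line are both lowest on DBAxFVB F1 array 3, and Trim10 and Car2 are highest on DBAxFVB F1 array 2, at 0.96 and 0.77.

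Bpgm, the enzyme that makes 2,3-bisphosphoglycerate and so lowers the oxygen affinity of hemoglobin, gave the same picture on its 3 probe sets. Probe set 1415865_s_at read 12.20 and 12.48 in AKRxFVB F1 and 12.19, 12.45 and 12.15 in DBAxFVB F1. Probe set 1448119_at read 12.18 and 12.53, and 12.23, 12.52 and 11.83. Probe set 1415864_at read 11.64 and 11.92, and 11.65, 11.92 and 11.29. On all 3, AKRxFVB F1 array 2 was highest, DBAxFVB F1 array 2 came next and DBAxFVB F1 array 3 was lowest. The probe sets share the RNA of each array and are not replicates. The gap between 1448119_at and 1415864_at stayed between 0.53 and 0.61 on the 5 arrays (SD 0.034), so these probe sets moved together. The gap between 1415865_s_at and 1448119_at ran from -0.063 to 0.32, the widest being on DBAxFVB F1 array 3, where 1415865_s_at fell short of its own mean by less than the others did.

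The Bpgm means were 12.34 ± 0.20 (SD, n = 2) and 12.26 ± 0.17 (SD, n = 3) on 1415865_s_at, a difference of -0.081 ± 0.34 (SE; limma adjusted p = 0.95). The differences on the others were -0.16 ± 0.37 and -0.16 ± 0.36, both with a limma adjusted p of 0.90. The 95% interval of 1448119_at, -1.02 to 0.70, was the widest of the 3. In these bright probe sets the direction depended on scaling. After cyclic loess normalization the differences were 0.62, 0.54 and 0.50. After quantile normalization they turned to 0.028 on 1415865_s_at and 0.069 on 1415864_at, while 1448119_at stayed below 0, at -0.012. All probe sets with a mean of 10 to 15 had a median difference of -0.30 and lay -0.61 from their mean on DBAxFVB F1 array 3. Without that array the differences were 0.022 on 1448119_at, 0.0049 on 1415864_at and -0.025 on 1415865_s_at. Without AKRxFVB F1 array 2 they were 0.059 on 1415865_s_at, 0.016 on 1448119_at and -0.016 on 1415864_at.

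Trim10, a tripartite motif protein needed for terminal erythroid differentiation in cell culture, had 1 array far above the rest. Its probe set 1419311_at read 8.98 and 8.56 in AKRxFVB F1 and 8.14, 9.69 and 8.30 in DBAxFVB F1. DBAxFVB F1 array 2 was highest, and the other DBAxFVB F1 arrays lay below both AKRxFVB F1 arrays. The means were 8.77 ± 0.30 (SD, n = 2) and 8.71 ± 0.86 (SD, n = 3), a difference of -0.058 ± 0.52 (SE; limma adjusted p = 0.98). The 95% interval of -1.28 to 1.16 spans folds from 0.413 to 2.23, so a change of over 2-fold in either direction lies within it. The residual SD of 0.72 was above that of 97.2% of tested probe sets, most of which are dimmer. The share among similarly bright probe sets was not computed. The difference was 0.15 without AKRxFVB F1 array 1, 0.23 without DBAxFVB F1 array 1, 0.15 without DBAxFVB F1 array 3, 0.55 after quantile normalization and 0.38 after cyclic loess normalization.

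Car2, the fast carbonic anhydrase of red cells and many other tissues, was nearly identical on the AKRxFVB F1 arrays and spread widely in the other cross. Its probe set 1448752_at read 9.71 and 9.68 in AKRxFVB F1 and 9.31, 10.32 and 8.74 in DBAxFVB F1. DBAxFVB F1 array 2 lay above both AKRxFVB F1 arrays, and the other DBAxFVB F1 arrays lay below them. The means were 9.69 ± 0.02 (SD, n = 2) and 9.46 ± 0.80 (SD, n = 3), a difference of -0.24 ± 0.50 (SE; limma adjusted p = 0.89) with a 95% interval from -1.40 to 0.93. The direction turned to 0.12 without DBAxFVB F1 array 3, to 0.32 after quantile normalization and to 0.26 after cyclic loess normalization.

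Trim10 and Car2 shared their highest array, where both lay farther above their means than the median of similarly bright probe sets. Probe sets with a mean of 8 to 10 lay 0.22 above their own mean on DBAxFVB F1 array 2, while Trim10 lay 0.96 and Car2 0.77 above theirs. With the class median of each array subtracted, Trim10 lay at 0.73 and Car2 at 0.54 on DBAxFVB F1 array 2. On DBAxFVB F1 array 3 the subtraction left Trim10 at 0.45 and Car2 at 0.07, from -0.44 and -0.82 before it. Bpgm lay between 0.16 and 0.26 above its means on DBAxFVB F1 array 2, while its class lay 0.20 above. The subtraction was chosen after the values were seen.

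Car1, the carbonic anhydrase abundant in mature red cells of many mammals, lies on chromosome 3 next to Car2, with 1 protein-coding gene, Car3, between them in RefSeq. Its probe set 1416193_at read 2.81 and 2.35 in AKRxFVB F1 and 3.19, 2.94 and 2.58 in DBAxFVB F1. The values straddle the array medians, so the signal is low on every array. AKRxFVB F1 array 1 lay inside the range of the DBAxFVB F1 arrays. The means were 2.58 ± 0.32 (SD, n = 2) and 2.91 ± 0.31 (SD, n = 3), a difference of 0.33 ± 0.22 (SE; limma adjusted p = 0.65) with a 95% interval from -0.19 to 0.84. It was the only member whose difference kept its sign under each of the alternatives that could be fitted for it, 14 in number, where it ranged from 0.098 without AKRxFVB F1 array 2 to 0.56 without AKRxFVB F1 array 1. These are not separate checks. The fits without a filter, without a variance trend and with robust variance repeat the main estimate by construction. The replicate block repeats the fit without DBAxFVB F1 array 3, at 0.49. All probe sets with a mean of 2.5 to 3 had a median difference of 0.068.

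**Figure D4:**
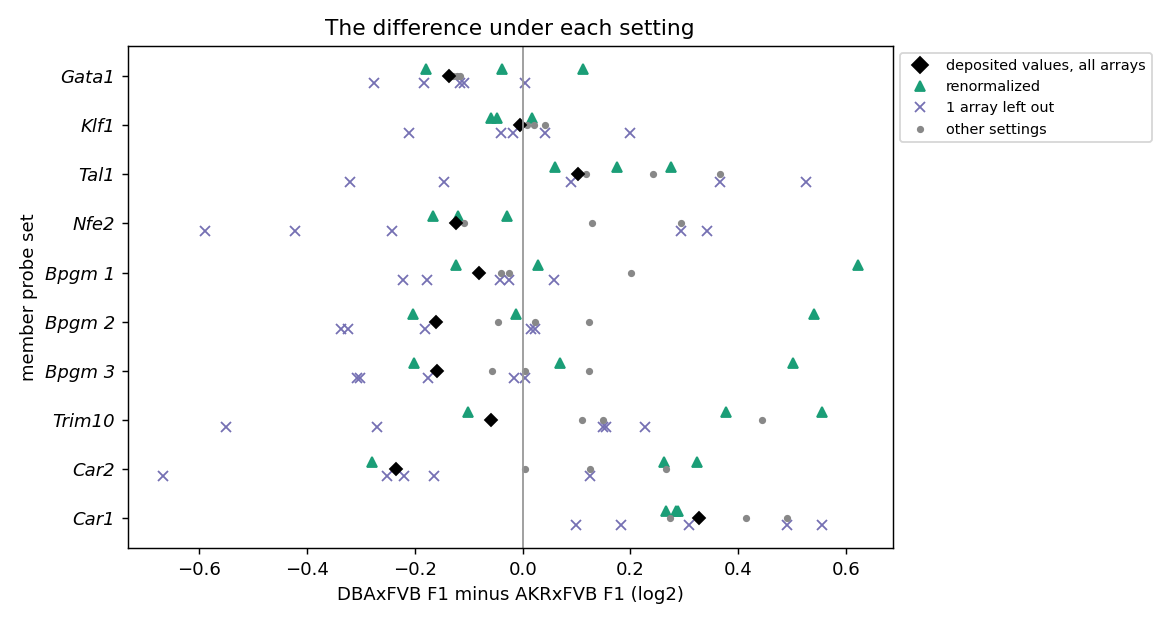
Difference between the crosses in log2 units (horizontal axis) for each member probe set (vertical axis) under each setting, with diamonds for the deposited values, triangles for renormalized values, crosses for fits with 1 array left out and dots for the other settings. The points of all members but Car1 lie on both sides of 0, and Trim10 runs from -0.55 to 0.55.

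The genes around the members were read from lists of related function, 1 probe set per gene, of which 0 passed over all genes tested. Over all 12421 named genes the background was 0% past the threshold, 6.40% lower and 3.61% higher at an unadjusted p below 0.05, and the median difference was 0.05. The 25 partners of the erythroid regulators had 4 members lower and 1 higher at an unadjusted p below 0.05, 18 lower in all where 41.7% of all named genes were lower, and a median of -0.11, or -0.19 with AKRxFVB F1 array 1 left out and -0.18 with DBAxFVB F1 array 2 left out. Cbfb, the shared partner subunit of RUNX factors, had the smallest p, with 6.49 and 6.34 in AKRxFVB F1 and 4.84, 4.74 and 4.72 in DBAxFVB F1. Its groups did not overlap, and the difference was -1.65 ± 0.24 (SE; limma adjusted p = 0.131). Jak2, the kinase of the erythropoietin receptor, differed by -0.83 ± 0.23 (limma adjusted p = 0.27), and by -0.093 ± 0.29 on probe set 1421065_at. Ikzf1, a lymphoid factor also found in erythroid cells, differed by -0.96 ± 0.27 on its brightest probe set and by 0.51 ± 0.23 on 1421303_at, so its probe sets disagree. Lmo2, the bridge between TAL1 and GATA1, differed by -0.42 ± 0.47, by 0.0018 without DBAxFVB F1 array 3, by 0.14 after quantile normalization and by 0.011 after cyclic loess normalization. Klf3, a repressor of KLF1 targets, differed by 0.23 ± 0.45 and by -0.23 without DBAxFVB F1 array 3, and its 6 tested probe sets ran from -1.12 to 0.35.

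Most tested B cell and T cell markers also read lower in DBAxFVB F1, as Cbfb and the brightest Ikzf1 probe set did, and 0 markers passed the threshold. The B cell antigen gene Ms4a1 stood at 8.03 and 6.97 in AKRxFVB F1 and 5.29, 5.16 and 6.19 in DBAxFVB F1. In the B cell list 7 of 8 tested genes were lower, and its log2 summed level was 9.11 and 8.01 in AKRxFVB F1 and 7.14, 7.07 and 7.84 in DBAxFVB F1. In the T cell list 7 of 8 were lower, and its log2 summed level was 7.60 and 7.86, against 7.65, 7.39 and 7.49. Cd3d, a chain of the T cell receptor complex, read 5.51 and 5.68 in AKRxFVB F1 and 4.94, 4.09 and 3.61 in DBAxFVB F1. In the monocyte list 4 of 7 were lower, with a log2 summed level of 10.65 and 10.23, against 9.24, 9.52 and 10.29, and the cathepsin gene Ctss differed by -1.49 ± 0.50. In the neutrophil list 2 of 8 were lower and 6 higher, with a summed level of 8.79 and 8.08, against 8.01, 7.91 and 8.69. S100a8 differed by -0.40 ± 0.41. Csf3r, which had the smallest p of that list, differed by 0.42 ± 0.17 (limma adjusted p = 0.47). The part of white cells in the partner genes was not tested.

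The remaining marker lists were small. Of 5 tested genes of proliferating precursors, 2 were higher, and Mki67 read 6.53 and 7.02 in AKRxFVB F1 and 6.43, 6.67 and 5.67 in DBAxFVB F1. Cdk1, which had the smallest p of that list, went the other way. It read 2.67 and 2.89 in AKRxFVB F1 and 3.06, 3.19 and 3.33 in DBAxFVB F1. Of 5 tested eosinophil, basophil and mast cell genes, which share GATA factors with the red cell line, 3 were higher, and the granule protein gene Prg2 stayed between 2.35 and 2.68. Of 4 tested cardiac muscle genes, 3 were higher, with a log2 summed level of 4.70 and 4.999 in AKRxFVB F1 and of 5.57, 4.97 and 5.40 in DBAxFVB F1. At an unadjusted p below 0.05, 2 were higher and 0 lower, against 3.61% and 6.40% of all named genes. These were Actc1, at 0.75 ± 0.27 (limma adjusted p = 0.41), and Myl2, at 0.78 ± 0.34 (limma adjusted p = 0.48). Myl2 differed by 0.40 without DBAxFVB F1 array 1. The cardiac gene Myh6 had 0 of its 2 probe sets above the filter.

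Genes of mitophagy, ubiquitin-driven clearance and reticulocyte maturation, the process in which the unmeasured Bnip3l serves as mitochondrial receptor, had 23 tested genes. At an unadjusted p below 0.05, 1 was lower and 0 higher, and the list median was -0.20, or 0.17 after quantile and 0.075 after cyclic loess normalization. Fundc1, another mitophagy receptor, was that gene, with 4.10 and 3.51 in AKRxFVB F1 and 3.47, 2.95 and 2.74 in DBAxFVB F1, a difference of -0.75 ± 0.27 (SE; limma adjusted p = 0.40). Its probe set 1453369_a_at differed by 0.16 ± 0.13, in the other direction. Gabarapl2 and Map1lc3b, which coat the autophagosome, differed by -0.38 ± 0.43 and -0.34 ± 0.46, but by -0.054 and 0.037 without DBAxFVB F1 array 3 and by 0.28 each after cyclic loess normalization. Usp32, a deubiquitinase, differed by -0.34 ± 0.23 and the autophagy protease gene Atg4b by 0.37 ± 0.28, or by 0.097 without AKRxFVB F1 array 2. The list median lay -0.61 from its mean on DBAxFVB F1 array 3, and without that array the median difference was 0.019. It was -0.056 without AKRxFVB F1 array 2, -0.46 with AKRxFVB F1 array 1 left out and -0.43 with DBAxFVB F1 array 2 left out.

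Heme, globin and red cell membrane genes were split evenly, with 15 of 30 tested genes higher and 15 lower, a median of 0.0021, and 1 lower and 0 higher at an unadjusted p below 0.05. With 1 array left out the median took either sign, from -0.19 without AKRxFVB F1 array 1 to 0.069 without DBAxFVB F1 array 3, and it was 0.13 after quantile and 0.12 after cyclic loess normalization. Alas2 differed by 0.017 ± 0.31 and Fech, which inserts iron into heme, by 0.041 ± 0.33, with either sign when 1 array is left out. After cyclic loess normalization they differed by 0.80 and 0.81. The glucose transporter gene Slc2a1 had the smallest p, with -0.87 ± 0.34 (limma adjusted p = 0.43), but -0.31 without AKRxFVB F1 array 1, -1.43 without AKRxFVB F1 array 2 and 0.17 ± 0.16 on probe set 1426600_at. Hba-a2 read 5.72 and 5.87 in AKRxFVB F1 and 5.35, 5.84 and 3.39 in DBAxFVB F1, a difference of -0.94 ± 0.65, which was -0.20 without DBAxFVB F1 array 3, whose value is the lowest, and -1.43 with DBAxFVB F1 array 2 left out. The mitochondrial carrier gene Slc25a38 differed by 0.25 ± 0.19. Among the other carbonic anhydrases and the glycolytic enzymes, 12 of 16 were higher, 2 higher and 2 lower at an unadjusted p below 0.05, and the median was 0.19. It was 0.33 without AKRxFVB F1 array 2. Pgk1 differed by -0.96 ± 0.29, Pfkl by 0.72 ± 0.23 (0.17 and -0.016 on its other tested probe sets, and 0.39 without AKRxFVB F1 array 1) and Pgam1 by -0.48 ± 0.18. Pklr, the pyruvate kinase of red cells, differed by 0.41 ± 0.29, or 0.26 without DBAxFVB F1 array 3 or without AKRxFVB F1 array 1. On its other tested probe sets Pklr differed by 0.47 and -0.037. Aldoa has 5 tested probe sets and differed by 0.33 ± 0.29 on the brightest, by which the list counts it as higher. The others were all lower, at -0.63, -0.79, -0.26 and, on 1433604_x_at, -0.91 ± 0.24. Its probe sets thus disagree, and no direction can be given for it.

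The genes with profiles closest to the 3 most variable members were found over 12413 other named genes by the mean absolute difference of values centred on their own 5-array mean. For Car2, which ranged over 1.59 log2 units, these were Prxl2a at 0.053, Pet100 at 0.088, Specc1 at 0.10, Zfand6 at 0.10 and Nt5c3 at 0.10, where the median gene was at 0.47. Prxl2a lay at 0.27 and 0.14 in AKRxFVB F1 and at -0.24, 0.72 and -0.89 in DBAxFVB F1, with the same highest and lowest arrays as Car2. For Trim10, which ranged over 1.55, they were 5430401H09Rik at 0.13, Metap2 at 0.16, Ctse at 0.16, Adk at 0.18 and Cyp4b1 at 0.19. For Nfe2, which ranged over 1.43, they were Zyx at 0.10, Aqp9 at 0.10, Arhgap18 at 0.11, Tspyl1 at 0.12 and Wapl at 0.12. The likeness is a description of these 5 arrays.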

How the data were processed

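Whole blood RNA of 5 samples was amplified with a 2-cycle kit and hybridised to 1 array each, per the labels' protocols. The values the authors deposited, 1 per probe set and array, were taken here as log2 because the values run from 1.29 to 14.8; no label states the base. MAS5 and RMA are named in the submitters' processing notes without versions, and which gave the values is not stated, so background correction and between-array scaling are unknown, as is any batch or scan order. Groups came from the sample titles. The 64 control probe sets were left out. Values were fitted in R 4.3.3 with limma 3.58.1 (lmFit, eBayes with a variance trend, 3 residual degrees of freedom, two-sided) for the 22519 probe sets with a mean of at least 2.51. An exact permutation test of 2 arrays against 3 cannot go below 0.1. The number of arrays limits the precision. The fit was tested on simulated data with independent noise in each probe set. No shared shift of bright probe sets, as seen on DBAxFVB F1 array 3, was simulated.

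The members and gene lists were chosen with earlier results of these data known. Of 204 list entries, 183 had a probe set with 1 symbol. Named from the erythroid lists were the 3 genes with the smallest p and the 2 with the highest mean; marker lists of other cells are given by counts and 1 or 2 markers. Symbols, gene order and promoters came from RefSeq (GRCm38.p6). Alternatives were 3 renormalizations, 2 filters, other variance models, array weights, a block for replicate number, and each array left out. Python 3.11.15 and matplotlib 3.10.9 drew the plots.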

Additional observations from a re-analysis of the deposited data

How the results depend on the processing

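No member passed the threshold under any of the 149 combinations of member and alternative; the smallest limma adjusted p was 0.35. The sign turned in 42 of them, and for the values not tied to 1 array the cause was not tested. The filters, the fit without a variance trend and robust variance estimation leave the estimate unchanged by construction, so no sign could turn there. The replicate block repeats the estimate found without DBAxFVB F1 array 3. The 42 of 149 is thus not a share of separate checks. After quantile normalization the difference was 0.11 for Gata1, 0.018 for Klf1, 0.028 and 0.069 for Bpgm (1415865_s_at, 1415864_at), 0.55 for Trim10 and 0.32 for Car2. After cyclic loess normalization it was 0.62, 0.54 and 0.50 for the Bpgm probe sets (1415865_s_at, 1448119_at, 1415864_at), 0.38 for Trim10 and 0.26 for Car2. With array weights it was 0.021 for Klf1, 0.13 for Nfe2, 0.11 for Trim10 and 0.0042 for Car2. With the class median of each array subtracted, an alternative chosen after seeing the data, it was 0.0087 for Klf1, 0.20, 0.12 and 0.12 for the Bpgm probe sets, 0.44 for Trim10 and 0.27 for Car2. With the replicate number as a block, which gives DBAxFVB F1 array 3 a term of its own, it was 0.042 for Klf1, 0.29 for Nfe2, 0.022 and 0.0049 for Bpgm (1448119_at, 1415864_at), 0.15 for Trim10 and 0.12 for Car2, and the block changed no call. Only 2 numbers are shared, and the numbers were not taken as pairs. The deviations of same-numbered arrays from their cross mean correlated at -0.26 and 0.17 across probe sets. With 2 AKRxFVB F1 arrays, their deviations are equal and opposite. The correlations are therefore not separate and cannot show or exclude pairing.

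With 1 array left out the difference ranged from -0.28 to 0.0052 for Gata1, -0.21 to 0.20 for Klf1, -0.32 to 0.53 for Tal1, -0.59 to 0.34 for Nfe2, -0.55 to 0.23 for Trim10 and -0.67 to 0.12 for Car2. For Bpgm it ranged from -0.22 to 0.059 (1415865_s_at), -0.34 to 0.022 (1448119_at) and -0.31 to 0.0049 (1415864_at). A lone AKRxFVB F1 array is then assumed to vary like the other cross. The median difference over the 8 member genes, -0.070, was 0.19 after quantile and 0.22 after cyclic loess normalization, and -0.22 without AKRxFVB F1 array 1, 0.078 without AKRxFVB F1 array 2, -0.14 without DBAxFVB F1 array 2 and 0.14 without DBAxFVB F1 array 3. That of the regulators' partners ranged from -0.19 to -0.072 with 1 array left out. That of carbonic anhydrases and glycolysis ranged from 0.14 to 0.33, and was 0.096 as a mean over each gene's probe sets. The count of probe sets past the threshold was 0 in every alternative, an adjusted p below 0.1 included; at an unadjusted p below 0.05 it was 2337, and 1243 without AKRxFVB F1 array 1, 1299 with the filter at the 75th percentile and 3880 without a filter. That stricter filter leaves Car1 out. The shorter letters GATA were in 5 of 6 member windows, against 57.9% of all. Signal near the array medians limits what Car1 can show.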
